A study of Homo sapiens with 28 samples.

Results

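The genes described here are 8 enzymes that modify collagen: the prolyl 4-hydroxylase subunits P4HA1, P4HA2 and P4HB, the lysyl hydroxylases PLOD1, PLOD2 and PLOD3, and the lysyl oxidases LOX and LOXL2. They were chosen by symbol, and all 8 were found among the 19662 gene symbols of each expression table. RNA-Seq covered 16 libraries of PC3 and LNCaP cells, both established human prostate cancer cell lines, with 8 libraries per line. The values are RPKM, read numbers scaled to the length of the transcript and to the number of mapped reads.

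PC3 cells, a line derived from a metastasis, had received a control siRNA (siCtrl) or siRNA against the transcription factor ONECUT2 (siOC2). By their labels, replicate 1 of the siOC2 groups received siRNA1 and replicate 2 received siRNA2, so the spread within a siOC2 group also holds the difference between siRNAs. LNCaP cells, a line derived from a lymph node metastasis, carried an empty vector or a vector for Flag-tagged ONECUT2 (Flag-OC2). Each of these 4 states was kept in normoxia or in hypoxia at 0.2% oxygen, with 2 libraries per group. No label says whether the libraries of a group came from separate cultures, so the p-values measure only the spread between these libraries. Each line is a single model in culture without stroma, and the tables of the lines were made separately, so levels in PC3 and LNCaP cells are given side by side with no test between them.

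Collagen chains are modified inside the endoplasmic reticulum before they are secreted. Prolyl 4-hydroxylase makes the hydroxyproline that stabilises the triple helix, and lysyl hydroxylases make the hydroxylysine that carries sugars and forms durable crosslinks. Both are oxygen-dependent enzymes that also need iron, 2-oxoglutarate and ascorbate, and several of their genes are textbook targets of the hypoxia-inducible factors (HIF). Outside the cell, lysyl oxidases, which use copper, convert lysine and hydroxylysine side chains to the aldehydes from which crosslinks form.

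The labels were first checked against marker genes. The summed RPKM of 4 LNCaP markers (KLK3, KLK2, TMPRSS2, FOLH1) was 2719 to 5840 in LNCaP libraries and 0.319 to 5.59 in PC3 libraries, and that of 3 PC3 markers (VIM, CAV1, CD44) was 290 to 1120 in PC3 and 23.9 to 58.7 in LNCaP libraries. Of 6 stromal fibroblast markers (DCN, LUM, PDGFRB, COL1A1, COL1A2, COL3A1), 3 stayed under 1 RPKM in all PC3 libraries and 5 in all LNCaP libraries. ONECUT2 stood at 1.77 and 1.16 RPKM in normoxic and 0.648 and 0.55 in hypoxic siCtrl cells, against 0.276 and 0.204 and 0.125 and 0.214 in siOC2 cells, so the knockdown groups did not overlap their controls. In limma the log2 difference was 2.18 ± 0.65 (SE) in normoxia and 1.39 ± 0.65 in hypoxia, with adjusted p of 0.332 and 0.439. Only the normoxic siCtrl libraries reached 1 RPKM and brought ONECUT2 into that test, so these values are a description. In empty vector LNCaP libraries ONECUT2 spread from 2.89 to 7.86 RPKM in normoxia and from 3.09 to 11.5 in hypoxia. The Flag-OC2 libraries hold no value for ONECUT2, which leaves the overexpression unchecked here. CA9, a carbonic anhydrase induced by HIF, was at most 1.54 RPKM in normoxic and at least 25.8 RPKM in hypoxic PC3 libraries. In LNCaP cells CA9 reached 1 RPKM only in hypoxic libraries, with log2 differences of 2.90 ± 0.44 (empty vector) and 4.42 ± 0.44 (Flag-OC2). ANKRD37, the other gene of this check, reached 1 RPKM in every LNCaP library and was higher in hypoxia by 2.02 ± 0.20 and 2.37 ± 0.20. Relative depth, estimated from the step that 1 read adds to low RPKM, was 0.348 to 1.15 in PC3, where siCtrl normoxia 1, siCtrl hypoxia 2 and siOC2 hypoxia 1 were shallowest, and 0.548 to 1 in LNCaP cells.

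Promoter sequences of some members are shown first, with the short core of letters that the HIF heterodimer recognises marked. RefSeq promoter sequences (GRCh38.p14, from 250 bases before to 50 bases after the start site) matched 7 of the 8 members, all except LOXL2. Only the first listed window of each member was taken, so other start sites of a gene were not searched. The cores ACGTG and GCGTG were searched on both strands. In the sequences below, which run 5′ to 3′ along the gene, capitals mark a core, read as CACGT where it lies on the opposite strand, and no marked core overlaps another. LOX, PLOD2 and P4HA1 are printed because they were called higher in hypoxia in all 4 backgrounds, by a rule on unadjusted P given below. In LNCaP cells LOX was tested only because its hypoxic libraries reached 1 RPKM, so its calls there are a description. P4HA2 is printed as a member that was called in LNCaP cells and whose window held no core.
LOX, chr5:122078210-122078509, minus strand: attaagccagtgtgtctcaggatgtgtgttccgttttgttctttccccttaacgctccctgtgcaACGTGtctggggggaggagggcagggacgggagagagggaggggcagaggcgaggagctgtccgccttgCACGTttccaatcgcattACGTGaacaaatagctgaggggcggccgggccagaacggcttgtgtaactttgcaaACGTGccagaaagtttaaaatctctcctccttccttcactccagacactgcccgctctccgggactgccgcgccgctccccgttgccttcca
PLOD2, chr3:146161135-146161434, minus strand: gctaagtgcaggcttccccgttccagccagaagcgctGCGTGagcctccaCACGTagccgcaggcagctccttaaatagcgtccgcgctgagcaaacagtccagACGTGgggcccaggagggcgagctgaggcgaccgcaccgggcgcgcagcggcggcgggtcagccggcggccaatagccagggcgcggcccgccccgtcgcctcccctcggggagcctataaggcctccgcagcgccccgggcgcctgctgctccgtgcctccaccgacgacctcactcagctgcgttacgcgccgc
P4HA1, chr10:73096817-73097116, minus strand: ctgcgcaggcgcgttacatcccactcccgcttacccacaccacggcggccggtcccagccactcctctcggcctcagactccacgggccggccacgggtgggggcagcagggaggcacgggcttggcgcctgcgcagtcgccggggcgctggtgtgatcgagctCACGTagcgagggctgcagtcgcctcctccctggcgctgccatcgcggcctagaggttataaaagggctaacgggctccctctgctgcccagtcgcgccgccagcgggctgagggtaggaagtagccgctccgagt
P4HA2, chr5:132227042-132227341, minus strand: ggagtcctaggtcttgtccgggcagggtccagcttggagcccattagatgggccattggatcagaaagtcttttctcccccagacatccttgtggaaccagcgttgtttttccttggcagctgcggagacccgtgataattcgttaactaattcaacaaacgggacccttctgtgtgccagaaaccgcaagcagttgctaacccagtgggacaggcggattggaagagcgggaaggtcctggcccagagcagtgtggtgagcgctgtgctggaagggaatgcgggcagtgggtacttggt

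The LOX window held 4 ACGTG cores, at -185, -116, -98 and -42 relative to the start site. The PLOD2 window held 2 ACGTG cores, at -200 and -146, and 1 GCGTG core at -213. P4HA1 had 1 ACGTG core at -86. PLOD1 held 2 GCGTG cores, at -68 and -25, and P4HB held 1 at -89, while the windows of P4HA2 and PLOD3 held neither. Of 35116 promoters of the same length, with every listed window counted, 48.45% held either core and 21.41% held ACGTG. Among the 7 matched members these were 5 and 3. These letters are a description of the windows and not evidence of binding, and their relation to the response in hypoxia was not tested.

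On GRCh37, the build of the deposited values, the GENCODE annotation places P4HA1 at chr10:74766975-74856732, P4HA2 at chr5:131525840-131631008, P4HB at chr17:79801035-79818732, PLOD1 at chr1:11994262-12035595, PLOD2 at chr3:145752926-145881512, PLOD3 at chr7:100849258-100861701 and LOX at chr5:121398890-121414108. The values are gene totals, so exons and transcript forms were not told apart. Protein-coding genes on the opposite strand overlap P4HA2 (PDLIM4 and SLC22A4), PLOD3 (ZNHIT1) and LOX (SRFBP1), and ENTPD4 overlaps LOXL2 on the same strand. The library kit keeps strand, but whether the counting used it is not given in the sources used here, so reads of overlapping genes may be shared.

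In normoxic control cells of both lines P4HB was the most and LOX the least abundant member. P4HB, the protein disulfide isomerase that doubles as the beta subunit of prolyl 4-hydroxylase, stood at 276 ± 69 RPKM (SD, n = 2) in siCtrl PC3 cells and 2806 ± 94.3 in empty vector LNCaP cells. In PC3 cells P4HA2 (72.9 ± 5.85), PLOD1 (69.2 ± 8.81) and P4HA1 (67.5 ± 3.61) followed, and each of these overlapped its neighbour in the order. PLOD2 (56.2 ± 8.28), LOXL2 (22.3 ± 1.13), PLOD3 (20.4 ± 0.14) and LOX (0.856 ± 0.218) came next without overlap between the libraries of neighbours.

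In LNCaP cells the order below P4HB was PLOD1 (62.2 ± 6.68), PLOD3 (38.6 ± 0.218), P4HA1 (33 ± 0.99), P4HA2 (21.5 ± 0.116), PLOD2 (5.37 ± 2.82), LOXL2 (1.02 ± 0.193) and LOX (0.579 ± 0.0961), and no neighbours overlapped. In hypoxia PLOD2 moved from place 5 to place 2 in siCtrl PC3 cells and from place 6 to place 2 in empty vector LNCaP cells. Its hypoxic level of 245 ± 58.2 RPKM in PC3 cells overlapped that of P4HA1 at place 3, whereas in LNCaP cells its 386 ± 15.7 RPKM stood clear of PLOD1 at place 3. Across the 8 LNCaP libraries, P4HB ranked between 23 and 35 among the 12283 genes tested.

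The first comparison asked how these genes respond to low oxygen in each background. A gene was called where the fold change was over 2 and the unadjusted P under 0.05 in limma, on log2(RPKM + 0.1), and each adjusted p carries the Benjamini-Hochberg correction for every gene in the test. In siCtrl PC3 cells 4 of 8 members rose, P4HA1, P4HB, PLOD2 and LOX, against 2.23% of the 12214 genes tested called higher in hypoxia, and no member was called lower (1.63% of genes). At an adjusted p under 0.05 PLOD2 and LOX remained, where 0.27% of genes passed. In siOC2 PC3 cells P4HA1, PLOD2 and LOX rose (3 of 8, against 1.11% of genes called higher and 2.35% lower).

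In empty vector LNCaP cells 5 of 8 members rose, P4HA1, P4HA2, PLOD1, PLOD2 and LOX, against 5.6% of the 12283 genes called higher and 2.34% called lower. The same 5 passed an adjusted p under 0.05, as did 32.3% of all genes. In Flag-OC2 cells these 5 and LOXL2 rose (6 of 8), against 5.48% of genes called higher and 1.36% lower, and all 6 passed an adjusted p under 0.05, as did 26.9% of genes. All 8 members passed the filter of at least 1 RPKM in at least 2 libraries of the line. In LNCaP cells LOX passed it only through its hypoxic libraries, and LOXL2 only with its 2 hypoxic Flag-OC2 libraries, beside 1 other library at 1 RPKM or more, so both had to be high in hypoxia to be tested at all and their calls there are given as a description. Without LOX and LOXL2, the members called were P4HA1, P4HA2, PLOD1 and PLOD2 in both LNCaP backgrounds. The median log2 fold change of the 8 members was 1.02 and 0.49 in siCtrl and siOC2 PC3 cells and 1.57 and 1.50 in empty vector and Flag-OC2 LNCaP cells, beside -0.07, -0.22, 0.02 and 0.09 over all genes tested. The LNCaP medians include LOX and LOXL2, so they too are a description. Upper-quartile scaling moved the median of all genes by 0.13 in the siOC2 contrast, and the share of calls that were higher in hypoxia went from 32.0% to 45.7% there.

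P4HA1 encodes the main catalytic alpha subunit of prolyl 4-hydroxylase. In siCtrl PC3 cells it went from 65 and 70.1 RPKM in normoxia to 245 and 208 in hypoxia, and in siOC2 cells from 109 and 72.7 to 178 and 247. Neither pair of groups overlapped. The log2 fold change was 1.74 ± 0.29 (SE) in siCtrl cells, 3.34-fold, with an adjusted p of 0.0649, and 1.24 ± 0.29 in siOC2 cells (adjusted p = 0.537). Without the siRNA2 library in normoxia or in hypoxia the siOC2 value came to 0.94 or 1.00 and lost its call. In LNCaP cells P4HA1 rose from 32.3 and 33.7 to 105 and 101 RPKM with empty vector and from 22.9 and 29.6 to 125 and 123 with Flag-OC2, again with no overlap. The adjusted p were 0.000103 at 1.64 ± 0.13 and 2.65e-05 at 2.25 ± 0.13.

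P4HA2, the alpha subunit of the type II enzyme, rose in LNCaP cells and was not called in PC3 cells, a difference that was not tested. In LNCaP cells it rose from 21.4 and 21.6 to 71.7 and 69.9 RPKM with empty vector, a log2 fold change of 1.71 ± 0.10 (adjusted p = 3.61e-05). With Flag-OC2 it rose from 31 and 27.3 to 65.5 and 63.1 RPKM, or 1.14 ± 0.10 (adjusted p = 0.000236). These groups did not overlap. In siCtrl PC3 cells it stood at 68.8 and 77.1 RPKM in normoxia and 164 and 135 in hypoxia, also without overlap, and the 2.05-fold difference did not pass (1.03 ± 0.62, adjusted p = 0.8). The siOC2 libraries, which share the estimate of the spread, held 79.1 and 23.5 RPKM in normoxia and 94.7 and 32.3 in hypoxia, with the lower value of each pair in the siRNA2 library. With a term for the siRNA, added after the data were seen, the siCtrl difference passed at the same value with an adjusted p of 0.0187, and in a fit of the compared groups alone at 0.00588.

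P4HB rose in siCtrl PC3 cells from 227 and 325 to 586 and 515 RPKM, 2.02-fold, close to the limit of the call (1.01 ± 0.26, adjusted p = 0.275). The call was lost under upper-quartile scaling (0.98), and without siCtrl normoxia 1 (0.76) or siCtrl hypoxia 1 (0.92). In siOC2 cells the values were 351 and 349 and then 437 and 597 RPKM (0.54 ± 0.26, not called). In LNCaP cells, where P4HB was about as abundant in every library, the empty vector values were 2872 and 2739 RPKM in normoxia and 3179 and 3239 in hypoxia. The 95% interval of that log2 difference was -0.05 to 0.44 with empty vector and -0.30 to 0.20 with Flag-OC2, so a change of 2-fold lay outside both.

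PLOD2, which hydroxylates lysines of the collagen telopeptides and so sets the kind of crosslink, had the highest fold change of the members in LNCaP cells. It went from 7.36 and 3.38 RPKM to 397 and 375 with empty vector and from 1.69 and 9.87 to 297 and 335 with Flag-OC2. All 4 hypoxic libraries lay at or above 297 RPKM, and all 4 normoxic ones at most at 9.87. The fold was 75.8 with empty vector (6.24 ± 0.67, adjusted p = 0.000495) and 74.6 with Flag-OC2 (6.22 ± 0.67, adjusted p = 0.000711). On the log scale the normoxic libraries of each group differed by more than the hypoxic ones.

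In PC3 cells PLOD2 started higher, at 50.4 and 62.1 RPKM in normoxic siCtrl cells, and rose to 286 and 204. That was 4.31-fold (2.11 ± 0.28, adjusted p = 0.0285). In siOC2 cells it rose from 76.6 and 54.5 to 193 and 200.0 RPKM, 3.03-fold (1.60 ± 0.28, adjusted p = 0.263). No normoxic library overlapped a hypoxic one in either background.

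PLOD1, the lysyl hydroxylase that acts mainly on helical lysines, rose in LNCaP cells. It went from 57.5 and 66.9 to 167 and 184 RPKM with empty vector (1.50 ± 0.10, adjusted p = 6.2e-05) and from 68.3 and 68.9 to 242 and 254 with Flag-OC2 (1.85 ± 0.10, adjusted p = 2.69e-05). In siCtrl PC3 cells 75.4 and 62.9 RPKM in normoxia stood beside 87.7 and 95.4 in hypoxia, without overlap and without a call (0.41 ± 0.31, 95% interval -0.30 to 1.12). In siOC2 PC3 cells the groups overlapped, with 48.3 and 54.5 and 39.4 and 69.7 RPKM (0.03 ± 0.31). Whether the response of PLOD1 differs between the lines was not tested.

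PLOD3, which also carries glycosyltransferase activity, was called in none of the 4 hypoxia contrasts, with unadjusted P between 0.0725 and 0.719. It held 20.3 and 20.5 RPKM in normoxic and 24.6 and 24.1 in hypoxic siCtrl PC3 cells, and 38.8 and 38.4 and 37.8 and 35.3 in empty vector LNCaP cells. The 95% intervals of the log2 difference were -0.33 to 0.17 with empty vector and -0.47 to 0.03 with Flag-OC2, which leave no room for a 2-fold change in LNCaP cells, whereas in siCtrl PC3 cells the interval was -0.56 to 1.06. In PC3 cells the siOC2 libraries spread from 17.6 to 24.6 RPKM in normoxia and from 16.3 to 31.8 in hypoxia, with siRNA2 above siRNA1 at both oxygen levels.

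LOX, which oxidises lysines of collagen and elastin, had the highest fold change of the members in siCtrl PC3 cells. It went from 1.01 and 0.701 RPKM to 10.9 and 10.9, 11.7-fold (3.54 ± 0.37, adjusted p = 0.00938). In siOC2 cells it went from 2.19 and 1.25 RPKM to 5.69 and 6.59, 3.54-fold (1.82 ± 0.37, adjusted p = 0.405). The siOC2 libraries thus started above the siCtrl ones in normoxia and ended below them in hypoxia. In LNCaP cells LOX rose from 0.511 and 0.646 to 3.25 and 2.86 RPKM with empty vector (2.22 ± 0.23, adjusted p = 0.000381) and from 0.485 and 0.382 to 2.71 and 2.44 with Flag-OC2 (2.33 ± 0.23, adjusted p = 0.000449). Even in hypoxia it stayed at or under 3.25 RPKM there, and the pseudocount holds down folds at such levels.

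LOXL2, a lysyl oxidase known for acting on basement membrane collagen, stood well above LOX in PC3 cells and near the lower limit of the test in LNCaP cells. In siCtrl PC3 cells it held 21.5 and 23.1 RPKM in normoxia and 37.2 and 30.5 in hypoxia, without overlap and without a call (0.59 ± 0.27, adjusted p = 0.69). In siOC2 PC3 cells the values were 20.2 and 15.1, then 24.6 and 23 RPKM (0.44 ± 0.27). In LNCaP cells with empty vector the hypoxic libraries were lower, 0.431 and 0.692 against 1.16 and 0.883 RPKM (-0.78 ± 0.34), called only without empty vector hypoxia 2 (-1.06). With Flag-OC2 it rose from 0.502 and 0.805 to 1.24 and 1.78 RPKM, 2.15-fold (1.10 ± 0.34, adjusted p = 0.0429). The gene entered the test through those hypoxic Flag-OC2 libraries, and with no filter on low values the adjusted p was 0.0793. The call was lost without Flag-OC2 normoxia 1 (0.81) or Flag-OC2 hypoxia 2 (0.86), and with a pseudocount of 1 (0.60).

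**Figure D1:**
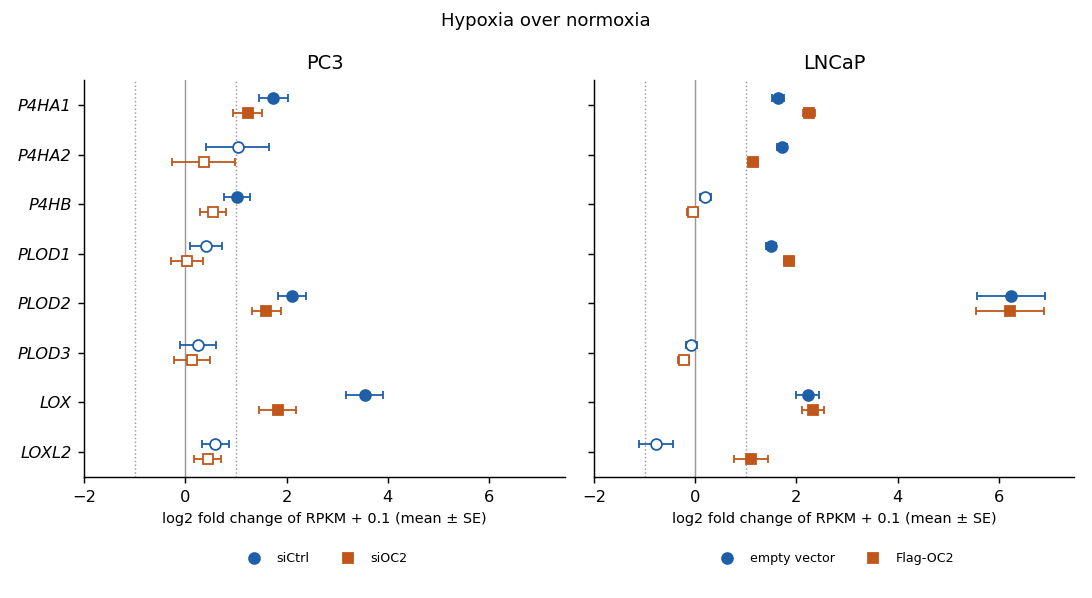
Log2 fold change of hypoxia over normoxia for the 8 genes (mean ± SE from limma), in PC3 cells at left and LNCaP cells at right. Circles are control cells, squares siOC2 or Flag-OC2 cells, and filled symbols are genes called at a fold change over 2 (dotted lines) and an unadjusted P under 0.05. PLOD2 in LNCaP cells lies beyond 6, and the circles and squares of LOX in PC3 cells and of LOXL2 in LNCaP cells lie apart.

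The next comparison asked how the members depend on ONECUT2 at each oxygen level. These contrasts use the same control libraries as the hypoxia contrasts, so the values of both are not independent. In normoxic PC3 cells no member was called by limma between siCtrl and siOC2, where 5.21% of all genes were. There 1 member, LOX, had an unadjusted P under 0.05, as did 1124 of the 12214 genes tested. LOX stood at -1.28, beyond the 2-fold limit, without siOC2 normoxia 2. In hypoxic PC3 cells 1 of 8 was called, P4HA2, against 7.5% of genes. In normoxic LNCaP cells no member was called between Flag-OC2 and empty vector, where 3.29% of genes were. There 2 members had an unadjusted P under 0.05 in limma, as did 2966 of the 12283 genes tested. In hypoxic LNCaP cells 1 of 8 was called, LOXL2, against 4.47% of genes. A count of 0 or 1 in 8 is near these background shares.

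P4HA2 was higher in siCtrl than in siOC2 cells by a log2 difference of 1.43 ± 0.62 in hypoxia (adjusted p = 0.41). Most of it lay in the siRNA2 library. Against 164 and 135 RPKM in the siCtrl libraries, the siRNA1 library held 94.7 RPKM and the siRNA2 library 32.3. In normoxia the siRNA1 library held 79.1 RPKM, above both siCtrl libraries, and the siRNA2 library 23.5, below both. Without the siRNA2 library the difference was 0.65 in hypoxia and -0.12 in normoxia, and without the siRNA1 library it was 2.20 and 1.63. The call in hypoxia was also lost under upper-quartile scaling (1.36), with no filter on low values, with no mean-variance trend, and without either siCtrl library of either oxygen level.

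The siRNAs were therefore compared with each other over both oxygen levels, a contrast added after the data were seen. P4HA2 was lower with siRNA2 than with siRNA1 by 3.13-fold (-1.65 ± 0.23, adjusted p = 0.000151), in 2 of 2 pairs. PLOD3 was higher with siRNA2 by 1.64-fold (0.72 ± 0.24, adjusted p = 0.0408), also in 2 of 2 pairs. The other members differed between siRNAs by -0.05 ± 0.26 (P4HA1), 0.22 ± 0.24 (P4HB), 0.50 ± 0.24 (PLOD1), -0.22 ± 0.25 (PLOD2), -0.27 ± 0.33 (LOX) and -0.26 ± 0.24 (LOXL2), with adjusted p from 0.144 to 0.899. With P4HA2 and PLOD3, 2 of 8 members passed an adjusted p under 0.05, as did 24.4% of all genes. ONECUT2 itself was at 0.276 and 0.125 RPKM with siRNA1 and 0.204 and 0.214 with siRNA2.

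No other member was called between siCtrl and siOC2 cells. LOX stood at -0.90 ± 0.37 in normoxia and 0.82 ± 0.37 in hypoxia. PLOD1 was higher in siCtrl than in siOC2 cells by 0.80 ± 0.31 in hypoxia (adjusted p = 0.341), where 87.7 and 95.4 RPKM with siCtrl stood above 39.4 and 69.7 with siOC2. It was higher by 0.42 ± 0.31 in normoxia, again without overlap of the groups. Without the siRNA2 library the hypoxic difference was 1.21 and called, with an adjusted p of 0.0306. P4HA1, P4HB and PLOD2 lay within 0.31 of 0 in hypoxia, with 95% intervals of -0.55 to 0.76, -0.49 to 0.70 and -0.34 to 0.94. In normoxia their differences were -0.40 ± 0.29, -0.36 ± 0.26 and -0.21 ± 0.28. LOXL2 was 0.35 ± 0.27 in normoxia and 0.50 ± 0.27 in hypoxia, and PLOD3 -0.03 ± 0.35 and 0.09 ± 0.35.

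In LNCaP cells differences of less than 2-fold passed the adjusted test for P4HA2 and PLOD1. P4HA2 was higher with Flag-OC2 in normoxia, 31 and 27.3 against 21.4 and 21.6 RPKM (0.43 ± 0.10, 1.35-fold, adjusted p = 0.0431). This was 1 of 8 members at an adjusted p under 0.05, as were 5.26% of all genes. In hypoxia the P4HA2 groups stood the other way round, with 65.5 and 63.1 RPKM in Flag-OC2 and 71.7 and 69.9 in empty vector cells (-0.14 ± 0.10, adjusted p = 0.395). PLOD1 was higher with Flag-OC2 in hypoxia, 242 and 254 against 167 and 184 RPKM (0.50 ± 0.10, 1.42-fold, adjusted p = 0.0209). With LOXL2, 2 of 8 members passed an adjusted p under 0.05 in hypoxia, as did 11.5% of genes.

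LOXL2 was 2.45-fold higher with Flag-OC2 in hypoxic LNCaP cells, at 1.24 and 1.78 against 0.431 and 0.692 RPKM (1.29 ± 0.34, adjusted p = 0.0445). In normoxia its Flag-OC2 libraries were the lower ones, 0.502 and 0.805 against 1.16 and 0.883 RPKM (-0.59 ± 0.34, adjusted p = 0.32). This contrast too rests on libraries that decided the entry of LOXL2 into the test, and with no filter its adjusted p was 0.0779. With a pseudocount of 1 the hypoxic difference was 0.68 and under the 2-fold limit, and with a filter of at least 5 RPKM the gene was not tested. P4HA1 stood at -0.34 ± 0.13 in normoxia (adjusted p = 0.149) and 0.27 ± 0.13 in hypoxia. PLOD3 in hypoxia held 28.1 and 31.3 RPKM with Flag-OC2 against 37.8 and 35.3 with empty vector (-0.30 ± 0.11, adjusted p = 0.115), and stood at -0.15 ± 0.11 in normoxia. P4HB stood at 0.20 ± 0.11 and -0.04 ± 0.11, LOX at -0.35 ± 0.23 and -0.24 ± 0.23, and PLOD1 in normoxia at 0.15 ± 0.10, none of which was called. PLOD2 was not called, with wide 95% intervals of -1.81 to 1.27 in normoxia and -1.83 to 1.25 in hypoxia. In hypoxia its groups did not overlap, with 297 and 335 RPKM in Flag-OC2 and 397 and 375 in empty vector cells (-0.29 ± 0.67). The normoxic libraries, which share the estimate of the spread, held 1.69 and 9.87 RPKM with Flag-OC2 and 7.36 and 3.38 with empty vector.

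**Figure D2:**
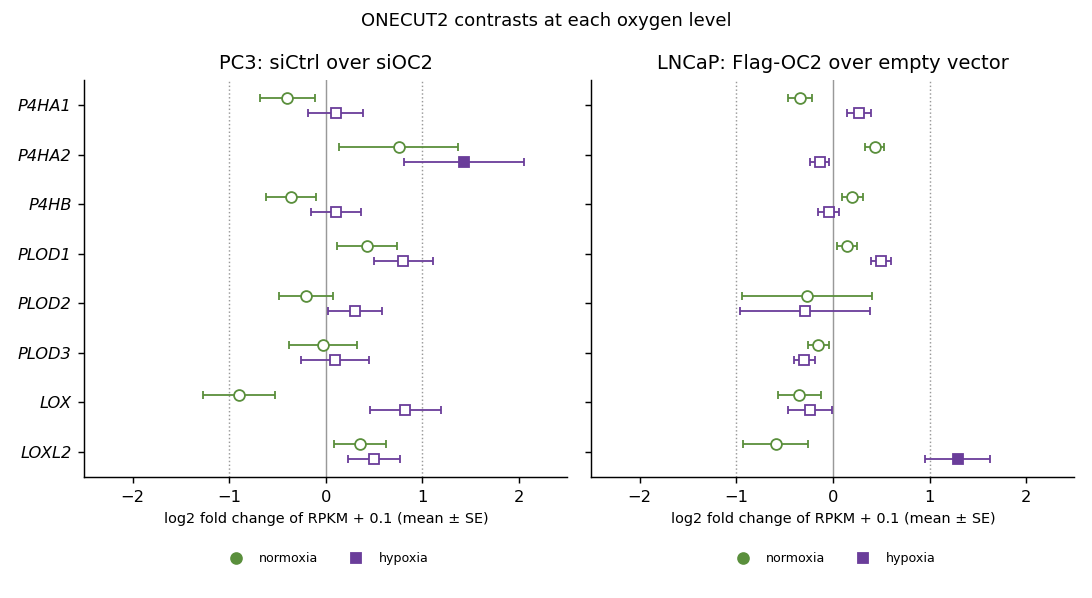
Log2 fold change for the 8 genes (mean ± SE from limma) of siCtrl over siOC2 in PC3 cells at left and of Flag-OC2 over empty vector in LNCaP cells at right. Circles are normoxia, squares hypoxia, and filled symbols are called genes, with dotted lines at a 2-fold change. P4HA2 in hypoxic PC3 cells (1.43) and LOXL2 in hypoxic LNCaP cells (1.29) are the only filled symbols, and LOX in PC3 cells lies at -0.90 in normoxia and 0.82 in hypoxia.

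The interaction asked whether the hypoxia response itself differed with ONECUT2. In PC3 cells 1 of 8 members was called, LOX, against 0.942% of genes, and in LNCaP cells 1 of 8, LOXL2, against 3.7%. The hypoxia response of LOX was larger in siCtrl than in siOC2 cells by a log2 difference of 1.72 ± 0.53, or 3.3-fold, with an unadjusted P under 0.05 and a limma adjusted p of 0.9998. The siCtrl libraries were the lower ones in normoxia (-0.90 ± 0.37, adjusted p = 0.512) and the higher ones in hypoxia (0.82 ± 0.37, adjusted p = 0.426), with no overlap at either oxygen level. Upper-quartile scaling moved the median interaction of all genes in PC3 cells by -0.16, and took the share of positive calls from 73.9% to 49.6%. After that scaling LOX remained called at 1.56.

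In LNCaP cells the LOXL2 response was larger with Flag-OC2 by 1.88 ± 0.48, or 3.68-fold (adjusted p = 0.127). The hypoxic Flag-OC2 libraries again decided its entry into the test (adjusted p = 0.192 with no filter). In hypoxia both empty vector libraries lay below their normoxic range and both Flag-OC2 libraries above theirs. P4HA1 and P4HA2 had opposite signs in this test, 0.61 ± 0.18 (adjusted p = 0.161) and -0.57 ± 0.14 (adjusted p = 0.118), each under the 2-fold limit. PLOD1 had 0.36 ± 0.15 (adjusted p = 0.274), P4HB -0.24 ± 0.15, PLOD3 -0.15 ± 0.15 and LOX 0.11 ± 0.32. The uncalled members in PC3 cells were P4HA1 at 0.50 ± 0.40, P4HA2 at 0.67 ± 0.87, P4HB at 0.47 ± 0.36, PLOD1 at 0.38 ± 0.44, PLOD3 at 0.12 ± 0.50 and LOXL2 at 0.15 ± 0.38. The interaction of PLOD2 had a 95% interval of -2.20 to 2.15 in LNCaP cells and -0.40 to 1.41 in PC3 cells.

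**Figure D3:**
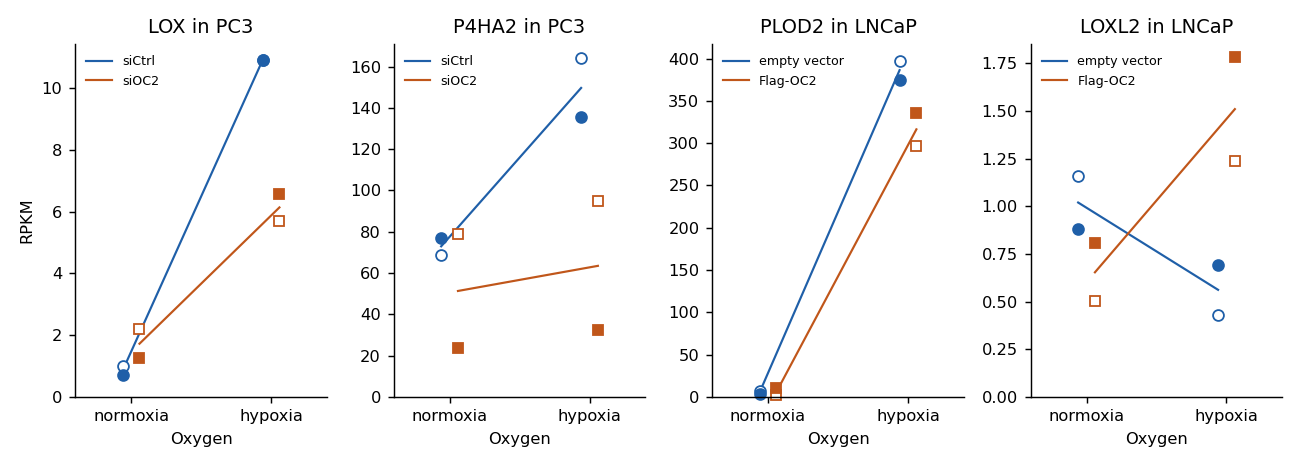
RPKM in normoxia and hypoxia of LOX and P4HA2 in PC3 cells and of PLOD2 and LOXL2 in LNCaP cells, 1 point per library, on linear axes that start at 0. Open points are replicate 1 and filled points replicate 2 (siRNA1 and siRNA2 in the siOC2 groups), and lines join the means of 2 libraries. The lines of LOX and LOXL2 cross, and the siRNA2 points of P4HA2 (23.5 and 32.3 RPKM) lie far below the siRNA1 points (79.1 and 94.7 RPKM).

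Other genes of the pathway were read from lists of collagen-modifying enzymes, of folding and secretion, of collagens and elastin, and of disulfide oxidation. The enzymes P3H1, P3H2, P3H3 and P3H4, the collagen COL26A1, and ERO1A and ERO1B of disulfide oxidation were not found under the symbols searched. The lists therefore say nothing about these genes. Among 7 tested enzymes in PC3 cells (5 in LNCaP cells) none was called for hypoxia in siCtrl or empty vector cells by limma. In each line 1 had an unadjusted P under 0.05, as did 7.38% of all genes in PC3 and 44.4% in LNCaP cells. The list medians were -0.47 and -0.32. LOXL1, a lysyl oxidase best known for elastic fibres, was the enzyme called between siCtrl and siOC2 cells. It held 207 and 229 RPKM in normoxic and 273 and 254 in hypoxic siCtrl libraries, against 51.9 and 32 and 58.3 and 60.6 in siOC2 libraries. The siCtrl libraries stood above both siRNAs at both oxygen levels. The difference was 5.34-fold in normoxia (2.42 ± 0.28, adjusted p = 0.0603) and 4.42-fold in hypoxia (2.14 ± 0.28, adjusted p = 0.0492). It was not called in LNCaP cells, where LOXL1 lay between 3.41 and 7.15 RPKM.

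**Figure D4:**
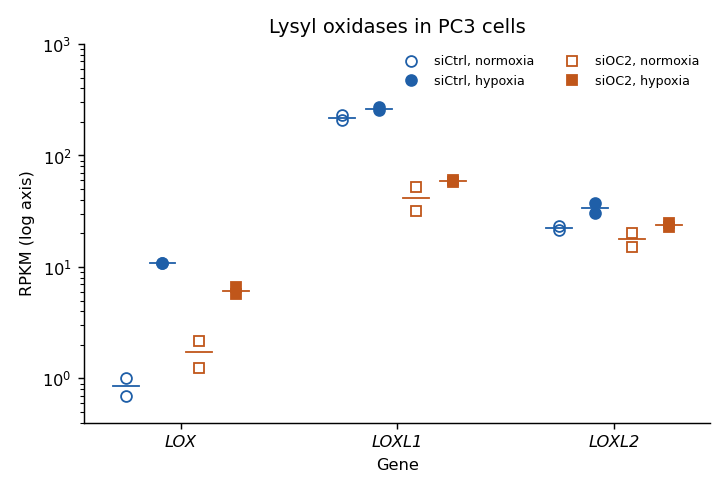
RPKM (log axis) of LOX, LOXL1 and LOXL2 in the 8 PC3 libraries, with a bar at the mean of 2 libraries. Circles are siCtrl, squares siOC2, open symbols normoxia and filled symbols hypoxia. LOXL1 is the most abundant, with siCtrl libraries at 207 to 273 RPKM and siOC2 libraries at 32.0 to 60.6 RPKM.

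Of 16 tested genes of collagen folding and secretion in PC3 cells, none was called for hypoxia in siCtrl cells by limma (0 had an unadjusted P under 0.05, as did 7.38% of all genes), while PCOLCE, an enhancer of procollagen C-proteinase, was higher in siCtrl than in siOC2 cells (1.09 ± 0.42 in normoxia and 1.57 ± 0.42 in hypoxia, adjusted p = 0.478 and 0.187). The procollagen proteinase TLL1 was lower (-1.69 ± 0.58 and -2.45 ± 0.58). Among 14 tested in LNCaP cells, PCOLCE2 rose in hypoxia with empty vector, from 0.182 and 0.411 to 3.43 and 2.92 RPKM (3.10 ± 0.44, adjusted p = 0.00166). CREB3L1, a transcription factor of collagen secretion, was at most 0.0384 RPKM in empty vector and at least 0.766 RPKM in Flag-OC2 libraries (3.18 ± 0.40 in normoxia and 3.21 ± 0.40 in hypoxia, adjusted p = 0.00452 and 0.00285), a difference that a pseudocount of 1 took under the 2-fold limit. PCOLCE2 passed the filter only through hypoxic and CREB3L1 only through Flag-OC2 libraries, so these values are a description.

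Collagens and elastin are the substrates of these enzymes. Of 22 tested collagen and elastin genes in siCtrl PC3 cells, 2 rose in hypoxia, COL6A1 (1.61 ± 0.35) and COL17A1 (1.54 ± 0.47), and 1 fell, COL24A1 (-1.62 ± 0.64), with adjusted p of 0.185, 0.428 and 0.613. Over all genes 2.23% were called higher and 1.63% lower in that contrast. COL17A1 passed the filter mostly through hypoxic libraries, with 1 normoxic library at 1 RPKM or more, so the count that holds it is a description. The list median was -0.08, beside -0.07 over all genes. Of 16 tested in empty vector LNCaP cells 4 were called higher in hypoxia, against 5.6% of all genes, with COL13A1 (2.14 ± 0.35), COL4A6 (1.52 ± 0.23) and COL1A1 (1.11 ± 0.11) at the highest values and adjusted p of 0.0032, 0.00226 and 0.000282. COL1A1 went from 7.72 and 7.57 to 17.5 and 15.7 RPKM there. Of the 16, 12 were higher in hypoxia with empty vector (median 0.45) and 15 with Flag-OC2 (median 0.69), where 2 were called, against 5.48% of genes. COL4A6 and COL17A1, which are among those called, and COL5A2 (0.87 with empty vector, not called) had no normoxic LNCaP library at 1 RPKM. All of these passed the filter only through hypoxic libraries, so the counts and medians that hold them are a description. The partner chain COL1A2 stayed at or under 0.00591 RPKM in every library of both lines.

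Between Flag-OC2 and empty vector LNCaP cells, 3 of 16 collagen genes were called in normoxia and 5 in hypoxia, all higher with Flag-OC2. Over all genes 2.81% and 3.7% were called higher with Flag-OC2, which was 85.4% and 82.7% of all calls in these contrasts. COL27A1, which passed the filter only through Flag-OC2 libraries, had 1.46 ± 0.21 and 2.00 ± 0.21, and COL13A1 2.67 ± 0.35 and 1.49 ± 0.35, with adjusted p between 0.00154 and 0.0326. COL5A1, called in hypoxia (1.54 ± 0.22), also passed it only through Flag-OC2 libraries. COL27A1 and COL5A1 thus had to be high with Flag-OC2 to be tested, and the counts that hold them are a description. In PC3 cells COL5A2 was lower in siCtrl than in siOC2 cells (-1.92 ± 0.48 and -2.90 ± 0.48) and COL4A1 higher (1.46 ± 0.41 and 1.01 ± 0.41), none with an adjusted p under 0.05, and COL5A2 passed the filter there through siOC2 libraries, with 1 siCtrl library at 1 RPKM or more. Of the disulfide oxidation partners, QSOX1 was called for hypoxia in siCtrl PC3 cells (1.21 ± 0.42, adjusted p = 0.536), 1 of 9 tested, against 2.23% of all genes called higher. Of 10 tested in empty vector LNCaP cells limma called none, 6 had an unadjusted P under 0.05, as did 44.4% of all genes, and 3 of the 10 were higher in hypoxia.

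The members did not share a single pattern. Each gene was centred within its cell line, and Pearson's r of log2(RPKM + 0.1) was taken over the 16 libraries as a description, since all points share the hypoxia design. P4HA1 and LOX had r = 0.947, P4HA1 and PLOD2 0.908, and PLOD1 and PLOD2 0.847. Within the lines alone, the first pair had 0.969 in PC3 and 0.972 in LNCaP cells, the second 0.979 and 0.977, and PLOD1 and PLOD2 0.283 and 0.937. PLOD3 had r between -0.41 and 0.43 with the other members. Among 10948 genes tested in both lines, the genes most like P4HA1 were PGAM1, ANKRD37 and PDK1 (r = 0.979 to 0.980), those most like LOX were BHLHE40, FAM162A and TMEM45A (0.969 to 0.979), and those most like PLOD2 were STC1, AKAP12 and PFKP (0.958 to 0.973).

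P4HA2 was most like PLEKHA2, GDE1 and ARNTL2 (0.936 to 0.982), and PLOD1 most like SEMA4C, TMSB10 and TMEM74B (0.950 to 0.966). P4HB was most like KHDRBS1, SERINC1 and CMPK1 (0.913 to 0.923), although within LNCaP libraries alone KHDRBS1 had r = -0.12. PLOD3 was most like METAP1, C2orf69 and PABPC4 (0.903 to 0.918). LOXL2 had the least close neighbours, ZBTB8A, RPL23 and FRMD4A (0.745 to 0.799).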

How the data were processed

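RNA-Seq of 16 libraries was used, 8 each of PC3 and LNCaP cells, and 12 further samples, of ChIP-Seq, were not used here. The authors aligned trimmed reads of stranded mRNA libraries to hg19 with STAR 2.4.2a and obtained RPKM from Cufflinks 2.1.1, run with GENCODE gene models on GRCh37. The deposited RPKM were used without a further scaling. Read counts were not used, so the standard errors and p-values rest on the spread between libraries. Relative depth, estimated from the step of 1 read in RPKM under 0.05, is a description and did not weight the fit.

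For each line, genes reaching 1 RPKM in 2 or more libraries entered a limma 3.58.1 fit (R 4.3.3) of log2(RPKM + 0.1) on the 4 groups, with its trend option and without a block, tested on simulated data beforehand. A fold change is on that log2 scale, which understates changes of low genes. A call needed more than a 2-fold change together with an unadjusted 2-sided P under 0.05. The Benjamini-Hochberg adjustment covered every gene in a contrast.

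Named are all 8 members in every contrast, up to 4 called genes of each pathway list per line with the largest fold changes, the 3 genes most like each member, ONECUT2, CA9 and ANKRD37, and cell line markers. COL1A2 was named after its values were seen. The members and lists were chosen with earlier results of these data known. Alternatives were a pseudocount of 1, no filter or at least 5 RPKM, upper-quartile scaling (75%), a fit of only the groups compared, no trend, adjusted p for calls, the replicate number as a block and leaving out each library. The swapped block, the siRNA term and the comparison of siRNAs were added after the data were seen. Part of the LNCaP marker list is not reported here. Promoters are RefSeq sequences of GRCh38.p14.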

Additional observations from a re-analysis of the deposited data

Results flagged for a closer look

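In PC3 cells the hypoxia response of LOX differed between siCtrl and siOC2 cells by a log2 value of 1.72, from the interaction term of limma (unadjusted P under 0.05, adjusted p = 0.9998). It kept its call under every alternative except that of calling by adjusted p, with the lowest value at 1.28 (pseudocount of 1).

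In LNCaP cells the hypoxia response of LOXL2 differed between Flag-OC2 and empty vector cells by 1.88 in the same test (unadjusted P under 0.05, adjusted p = 0.127). Its levels there were between 0.431 and 1.78 RPKM, and it entered the test only with its hypoxic Flag-OC2 libraries, the high group of this contrast. With no filter the adjusted p was 0.192, and with a pseudocount of 1 the value was 0.97 and no longer called. With 2 libraries per group, no library could be judged to stand apart from its group.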

How the results depend on the processing

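Of 694 member values recomputed under settings other than leaving out a library, 668 kept direction and call, 15 lost the call, 6 gained it and 5 changed sign. The sign changed under upper-quartile scaling for PLOD3 (0.0732, siCtrl over siOC2 in normoxia; -0.0455, interaction in PC3), LOXL2 (-0.0141, interaction in PC3) and P4HB (0.0119, Flag-OC2 over empty vector in hypoxia), and with a pseudocount of 1 for LOX (-0.0429, interaction in LNCaP). None of these values was called.

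At an adjusted p under 0.05 in limma, the members called fell from 4 to 2 (siCtrl hypoxia), 3 to 0 (siOC2 hypoxia), 1 to 0 (siCtrl over siOC2 in hypoxia) and 1 to 0 (each interaction), and rose from 0 to 1 and 1 to 2 for Flag-OC2 over empty vector in normoxia and hypoxia. The main fit counts the difference between siRNAs as spread, so the 0 in siOC2 hypoxia is no sign that a response was absent. The 1 call for siCtrl over siOC2 in hypoxia became 0 with no filter on low values, with upper-quartile scaling and with no trend. The 1 call for Flag-OC2 over empty vector in hypoxia, and that of the LNCaP interaction, became 0 with a pseudocount of 1 and with at least 5 RPKM. Leaving out 1 library gave 3 to 4 calls for siCtrl hypoxia, 2 to 3 for siOC2 hypoxia, 5 to 6 for each LNCaP hypoxia contrast, 0 to 1 for siCtrl over siOC2 at either oxygen level and for Flag-OC2 over empty vector in normoxia, 1 to 2 for the LNCaP interaction, and 1 for the other 2 contrasts.

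Without single libraries, 29 of 640 member values changed sign, all of them small or widely spread. For the interaction in LNCaP cells these were LOX -0.0366 to 0.25 and PLOD2 -1.26 to 1.22. For the interaction in PC3 cells these were LOXL2 -0.0603 to 0.36, P4HA2 -0.20 to 1.55, PLOD1 -0.0326 to 0.79 and PLOD3 -0.36 to 0.60. For siCtrl over siOC2 in hypoxia these were P4HA1 -0.13 to 0.34, P4HB -0.12 to 0.33 and PLOD3 -0.39 to 0.57. For hypoxia in siOC2 PC3 cells these were P4HA2 -0.52 to 1.23, PLOD1 -0.38 to 0.44 and PLOD3 -0.35 to 0.61. For siCtrl over siOC2 in normoxia these were P4HA2 -0.12 to 1.63, PLOD2 -0.45 to 0.0363 and PLOD3 -0.27 to 0.21. For Flag-OC2 over empty vector in hypoxia the range was P4HB -0.0901 to 0.0006. For hypoxia in Flag-OC2 LNCaP cells the range was P4HB -0.17 to 0.0701. For Flag-OC2 over empty vector in normoxia the range was PLOD2 -1.51 to 0.97.

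Replicate numbers did not pair the libraries (correlations of deviations from -0.186 to 0.275, and 0.618 between siOC2 groups of the same siRNA). With the replicate block, the members called were 5, 3, 0, 1 and 1 in PC3 and 5, 6, 0, 1 and 1 in LNCaP cells, P4HA2 in siCtrl hypoxia (1.03, adjusted p = 0.632) being the 1 gained, and all genes called in siCtrl hypoxia went from 471 to 562. With siCtrl numbers in normoxia swapped this was 514.

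For likeness, 5 of the 24 nearest genes were also nearest in PC3 libraries alone and 1 in LNCaP libraries alone. With ACGTG alone 3 promoters held a core. The siRNA contrast kept all 32 of its alternative values. Of 646 values of pathway genes, 548 kept their call, 98 lost it and 0 changed sign.

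Limits: each group held 2 libraries, shallow in part, and 1 siOC2 library per siRNA. LOX in normoxia and LOXL2 in LNCaP cells lay near 1 RPKM, where the pseudocount and filter weigh most. Duration of hypoxia, protein levels and enzyme activity were not analysed here.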
